A study of Mus musculus with 16 samples.

Results

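Iron uptake, reduction and storage were followed in mouse dermal fibroblasts through 10 listed genes: Tfrc, Slc11a2, Steap1, Steap2, Steap3, Steap4, Cybrd1, Fth1, Ftl1 and Slc40a1. The genes were chosen by name with earlier results of the same arrays known, and each was read from its probe set (a group of short probes against the same transcript) with the highest mean over all arrays. Of the 10 genes, 9 had a probe set annotated to that gene alone, among 17097 such genes on the array, and all 9 passed the filter on dim probe sets that left 14819 genes for testing. Slc11a2, the carrier that takes ferrous iron out of the endosome, was matched only through probe sets shared with another gene and is not analysed here.

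The cells came from female C57Bl/6 mice, an inbred laboratory strain. Old mice were 18 months and young mice 2 months of age, and from every mouse 5000 fibroblasts were profiled right after isolation (in vivo, in the wording of the labels) and 5000 after culture. This gave 4 groups of 4 arrays: old cultured, young cultured, old in vivo and young in vivo. The study asked how culture bears on age differences in these cells. Every sample was amplified as cDNA before labelling, and the sources used here give neither the medium nor the passage nor the time in culture. Which arrays come from the same mouse or day is not stated in the labels, so cultured and in vivo arrays of the same mouse were treated as independent.

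Cells take up iron mainly as transferrin, which binds the transferrin receptor at the surface and is carried into endosomes, where ferric iron is released, reduced by Steap family metalloreductases and passed to the cytosol. Surplus iron is stored in ferritin, a shell of heavy and light chains, or leaves the cell through ferroportin. The iron regulatory proteins, of which Aco1 is one, bind iron-responsive elements in these messages: they stabilise the receptor's mRNA and hold back translation of ferritin's, so ferritin protein need not follow its mRNA.

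The 9 measured genes split in culture. Tfrc, Steap1 and Steap2 were far higher in cultured than in in vivo cells, while Steap3, Steap4 and Cybrd1 were lower. Averaged over both ages, the ferritin chains and ferroportin were lower by smaller amounts, and Ftl1 did not pass the threshold in young cells alone. With age, Cybrd1 had lower values on old than on young in vivo arrays, and the other 8 genes had no age difference past the threshold in either condition. All values below are log2 intensities as deposited, all changes are differences of log2 group means with the standard error of the fit (SE), and a change was counted where limma's Benjamini-Hochberg adjusted p over all 14819 genes was below 0.05. As a guide to background, the 95th percentile of the poly-A spike control probe sets was 4.34.

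All arrays carried fibroblast transcripts: the 9 fibroblast markers averaged 9.35 to 9.52 on old cultured, 9.32 to 9.65 on young cultured, 10.64 to 10.86 on old in vivo and 10.80 to 10.87 on young in vivo arrays. Of these 9 markers, 8 were lower in culture, where 44.7% of all tested genes were lower. Of the 12 macrophage markers, Ptprc, Adgre1, Mrc1 and C1qa were below 4.34 on every array. The macrophage list averaged 4.13 to 4.21 on old cultured and 4.14 to 4.21 on young cultured arrays, against 4.73 to 4.81 on old in vivo and 4.77 to 4.93 on young in vivo arrays. Other cell types' markers also moved with culture. Lower were 8 of 9 tested macrophage, 5 of 8 endothelial, 5 of 5 melanocyte and 5 of 5 T cell markers. Of 9 tested keratinocyte markers 5 were lower and 1 higher, and of 4 erythroid markers 3 were lower and 1 higher. The higher erythroid marker, Alas2, was below 4.34 on every array. Among all tested genes 44.7% were lower and 34.8% higher. The median log2 change was -0.45 for macrophage, -0.21 for endothelial, -0.51 for melanocyte and -0.19 for T cell markers. The widest falls in those lists were in Mitf (melanocyte, -2.73), Tek and Kdr (endothelial, -2.72 and -2.35) and Cd68 (macrophage, -2.59). The other tested markers of those lists changed less. Of 5 pericyte and smooth muscle markers 2 were higher, Myh11 by 4.36 and Mcam by 1.84, and 2 were lower, Kcnj8 with -3.52 and Des with -0.82. Rgs5, with -0.13, did not pass the threshold. The endothelial list averaged 3.97 to 4.23 on old cultured and 4.09 to 4.17 on young cultured arrays, against 4.81 to 5.18 on old in vivo and 4.70 to 4.88 on young in vivo arrays, with Emcn, Vwf and Tie1 below 4.34 on every array. The melanocyte list averaged 4.29 to 4.70 on old cultured and 4.43 to 4.52 on young cultured arrays, against 5.10 to 5.37 on old in vivo and 5.13 to 5.19 on young in vivo arrays, with Dct, Tyr and Tyrp1 below 4.34 on every array. The T cell list lay near the control level throughout. It averaged 4.21 to 4.30 on old cultured and 4.25 to 4.38 on young cultured arrays. In vivo it averaged 4.44 to 4.55 on old and 4.45 to 4.58 on young arrays, with Cd3e and Cd28 below 4.34 on every array. All 9 measured cell division genes were higher in culture, with a median change of 3.68, where 34.8% of all tested genes were higher. Old in vivo replicate 1 stood apart in keratinocyte genes: Krt5 was 9.68 there and 5.74 to 6.14 on the other old in vivo arrays. The 10 keratinocyte markers averaged 5.99 on that array, against 4.78 to 4.89 on the other old in vivo and 4.91 to 5.07 on the young in vivo arrays. The culture change of Tfrc and the in vivo age differences of Cybrd1, Tfrc, Steap4 and Trf are given with and without this array. The part of other cell types in the falls and rises in culture was not tested. In bulk samples, fewer cells of a type and less RNA per cell cannot be told apart.

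The culture difference of Steap1 and the in vivo age difference of Cybrd1 had been singled out in an earlier account of these arrays, so they are given as a description, with no p and in no count. In culture against in vivo, the 8 genes other than Steap1 all passed the threshold, 2 of them higher and 6 lower. Over all tested genes the share past the threshold was 79.5%, with 34.8% higher and 44.7% lower, so passing it was common to most genes. Of the 8 genes, 5 changed by at least 2-fold, where 21.4% of all genes did. In 6 of the 8 the cultured and in vivo arrays did not overlap, where 45.1% of all genes had no overlap. The median size of the change was 1.94 for the 8 genes and 0.41 for all tested genes. The genes were chosen with earlier results of these arrays known, so these shares and medians describe the list and do not test it.

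**Figure D1:**
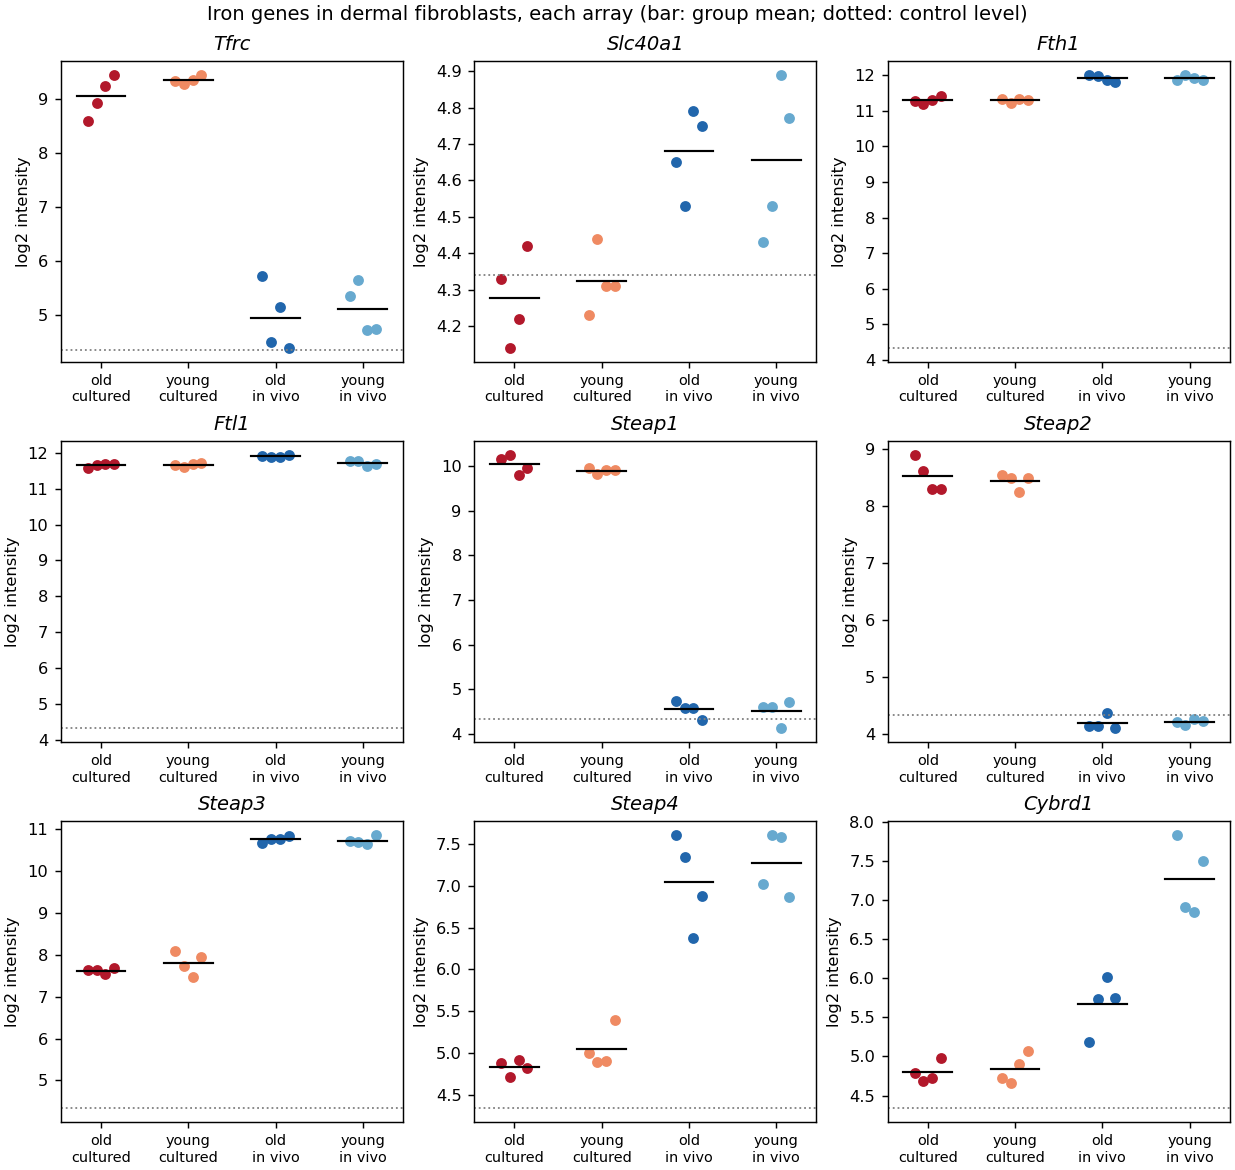
Log2 intensity of the 9 measured iron genes on each of the 16 arrays, 4 per group, with a bar at the group mean and a dotted line at the control level of 4.34; each panel has its own vertical scale. Tfrc, Steap1 and Steap2 lie high on all cultured arrays. In vivo, Steap1 and Steap2 lie near the control level, while Tfrc reaches 5.71. Steap3, Steap4 and Cybrd1 are lower in culture than in vivo, and Steap3 stays far above the control level in culture. The old in vivo arrays of Cybrd1 (at most 6.01) lie below its young in vivo arrays (at least 6.84).

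The start regions of the 3 genes that were higher in culture are shown because these genes moved together. They are RefSeq windows of assembly GRCm38.p6, printed 5′ to 3′ on the gene's strand from 250 bases before the transcript start to 5 bases into it. Capitals mark a match to a short motif searched on both strands, whatever other motifs a stretch holds. In the Tfrc stretch (chr16:32608646-32608900, plus strand) they mark ACGTG, the core bound by hypoxia-inducible factors, at bases -2 to 3 around the start. In the Steap1 stretch (chr5:5749313-5749567, minus strand) they mark 2 matches to TGCNCNC, one of them on the opposite strand. These letters are looser than the metal response core, which has only A or G at the first N. The opposite-strand match has T there. In the Steap2 stretch (chr5:5694564-5694818, minus strand) they mark TGACNNNGC, the antioxidant response element, at bases -25 to -17.
Tfrc: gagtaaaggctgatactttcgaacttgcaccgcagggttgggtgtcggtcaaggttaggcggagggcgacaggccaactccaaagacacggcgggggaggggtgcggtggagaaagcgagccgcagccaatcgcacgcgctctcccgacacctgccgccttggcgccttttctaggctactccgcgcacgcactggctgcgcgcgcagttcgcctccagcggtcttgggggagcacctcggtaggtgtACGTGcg
Steap1: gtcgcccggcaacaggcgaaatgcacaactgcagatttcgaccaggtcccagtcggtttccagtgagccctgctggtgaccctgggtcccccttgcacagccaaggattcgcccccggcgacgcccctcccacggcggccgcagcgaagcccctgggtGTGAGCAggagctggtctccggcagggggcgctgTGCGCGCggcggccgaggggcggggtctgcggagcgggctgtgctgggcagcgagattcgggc
Steap2: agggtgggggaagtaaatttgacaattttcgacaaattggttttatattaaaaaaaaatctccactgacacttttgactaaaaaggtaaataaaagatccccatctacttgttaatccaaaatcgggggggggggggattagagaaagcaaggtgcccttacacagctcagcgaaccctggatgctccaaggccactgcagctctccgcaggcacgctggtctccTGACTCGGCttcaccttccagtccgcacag
Of all 32544 RefSeq windows of 300 bases in the table, 19.7% held ACGTG, 51.3% held TGCNCNC and 12.4% held TGACNNNGC on either strand. The TGCNCNC letters are thus in most windows. They also occur in windows of Tfrc and Steap2, and in windows of Steap3, which was lower in culture. ACGTG also occurs in a Steap2 window other than the printed stretch. The iron-responsive element core, a CAGTGN loop preceded by an unpaired C, was searched in the first 50 transcribed bases of the sense strand. It was found in 508 of all windows, or 1.56%, and in none of the windows of the listed genes. An element further along a message lay outside those bases, so this search cannot say whether these messages carry one. Windows were found for 8 of the 10 genes, and Slc40a1 and Slc11a2 had none. These matches describe letters only and were not tested against expression.

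Tfrc, the transferrin receptor, lies on chromosome 16 (32608896 to 32632794, GRCm38.p6). It measured 8.60, 8.94, 9.26 and 9.46 on the old cultured arrays and 9.35, 9.28, 9.37 and 9.46 on the young cultured arrays. In vivo it measured 5.71, 4.49, 5.15 and 4.38 on the old arrays and 5.34, 5.64, 4.72 and 4.73 on the young arrays. Every cultured array was above every in vivo array. The culture change was 4.20 ± 0.19 (SE, 18.3-fold, limma adjusted p = 3.15e-12), with 4.13 ± 0.27 in old and 4.26 ± 0.27 in young cells. Without old in vivo replicate 1 it was 4.32.

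The receptor was read by 5 further probe sets, which include the array's own controls against the 3′ end, the 5′ end and the middle of the same transcript. All of them were higher in culture, by 3.34 and 2.94 on the other gene probe sets and by 2.45, 2.80 and 2.29 on the 3′, 5′ and middle controls. Many of their in vivo values were below 4.34, where RMA values compress differences. Old cultured replicates 1 and 2 had lower Tfrc than old cultured replicates 3 and 4 on all 6 probe sets. On the Tfrc controls, the 3′ minus 5′ difference averaged -0.51 ± 0.25 on old cultured and -0.38 ± 0.21 on young cultured arrays (SD, n = 4 each). In vivo it averaged -0.10 ± 0.20 on the old and -0.09 ± 0.13 on the young arrays. By an exact two-sided permutation test the age difference of -0.12 in culture had p = 0.5714, and 0.7886 after adjustment over 6 such comparisons. The same 3′ minus 5′ difference on the Actb controls averaged 0.10 ± 0.07 on old cultured and 0.07 ± 0.04 on young cultured arrays, against -0.46 ± 0.11 on old in vivo and -0.41 ± 0.07 on young in vivo arrays, with no overlap between cultured and in vivo arrays. On the Gapdh controls it was lower on old in vivo arrays, -0.14 ± 0.02, than on young in vivo arrays, -0.08 ± 0.03, with an exact permutation p = 0.0286, the smallest that 4 against 4 arrays allow, and 0.1714 after adjustment. The part of these differences in the culture and age results was not tested.

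**Figure D2:**
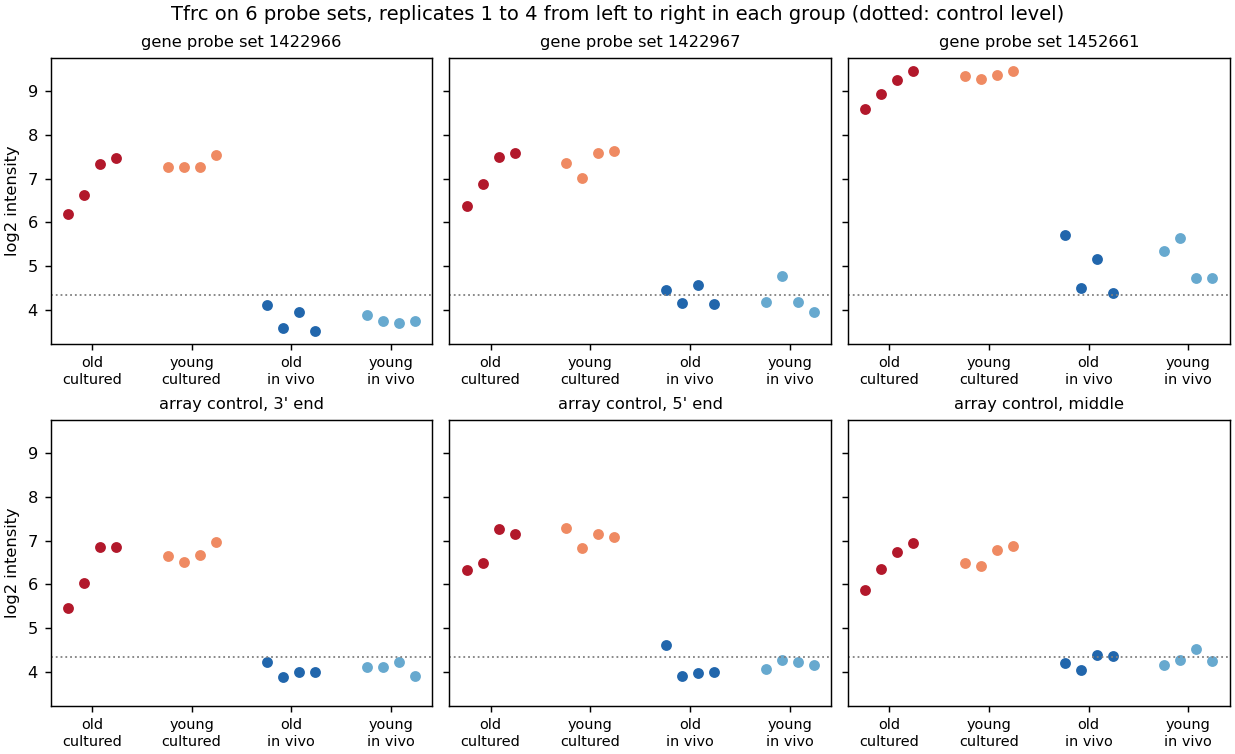
Log2 intensity of Tfrc on 6 probe sets, the 3 annotated to the gene in the upper row and the 3 array controls in the lower row, with replicates 1 to 4 of each group from left to right and a dotted line at 4.34. On all 6 the cultured arrays lie above the in vivo arrays, and old cultured replicates 1 and 2 lie below old cultured replicates 3 and 4.

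Steap1 and Steap2 lie next to each other on chromosome 5 (5736322 to 5749317 and 5664829 to 5694649, both on the minus strand), and Steap4 lies further along the same chromosome (7960472 to 7982213). The Steap proteins are transmembrane metalloreductases. Steap2, Steap3 and Steap4 reduce iron and copper in cell assays, while Steap1 lacks the NADPH-binding part that the others carry. Steap3 is the main ferrireductase of the transferrin cycle in mouse red cell precursors.

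Steap1 measured 10.15, 10.25, 9.79 and 9.96 on the old cultured arrays and 9.96, 9.82, 9.90 and 9.91 on the young cultured arrays. In vivo, values were 4.74, 4.58, 4.58 and 4.30 on the old arrays and 4.61, 4.60, 4.13 and 4.72 on the young arrays. The cultured arrays formed a narrow high band, and the in vivo arrays lay close to the control level. The difference was 5.43 ± 0.09, or 43.3-fold, the 9th largest increase among the 14819 tested genes. It was 5.49 ± 0.13 in old and 5.38 ± 0.13 in young cells. The probe set used is of a kind whose probes can also match transcripts of other genes, and the predicted gene Gm46900 overlaps Steap1 in RefSeq. The second Steap1 probe set had 6.61 to 7.12 on old cultured and 6.68 to 6.98 on young cultured arrays, against 3.46 to 3.72 on old in vivo and 3.43 to 3.65 on young in vivo arrays.

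Steap2 measured 8.89, 8.60, 8.29 and 8.30 on the old cultured arrays and 8.54, 8.48, 8.24 and 8.49 on the young cultured arrays. On in vivo arrays it measured 4.14, 4.15, 4.37 and 4.11 on the old arrays and 4.22, 4.17, 4.27 and 4.23 on the young arrays, mostly below the control level. No cultured array came near the in vivo arrays. The culture change was 4.27 ± 0.08 (19.3-fold, limma adjusted p = 1.55e-16), the 39th largest increase, and Tfrc followed as the 44th. The 3 other Steap2 probe sets were dimmer and were higher in culture by 1.22, 1.36 and 0.60, so the mean over all 4 probe sets rose by 1.86 (limma adjusted p = 4.33e-12).

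Steap3 (chromosome 1, 120226414 to 120271081) ran the other way. It measured 7.64, 7.63, 7.54 and 7.68 on the old cultured arrays and 8.09, 7.74, 7.46 and 7.95 on the young cultured arrays. In vivo it measured 10.66, 10.75, 10.76 and 10.83 on the old arrays and 10.71, 10.68, 10.63 and 10.86 on the young arrays. The in vivo arrays of both ages lay within a quarter-unit band, well above every cultured array. The change was -3.02 ± 0.08 (8.10-fold lower, limma adjusted p = 2.71e-15), the 175th largest decrease among the tested genes.

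Steap4, which is induced by inflammatory signals in mouse fat tissue, measured 4.88, 4.71, 4.91 and 4.82 on the old cultured arrays and 5.0, 4.89, 4.90 and 5.40 on the young cultured arrays. In vivo, values were 7.61, 7.34, 6.37 and 6.88 on the old arrays and 7.02, 7.61, 7.59 and 6.87 on the young arrays. The in vivo arrays were more scattered than for Steap3, but none reached down to the cultured arrays. The change was -2.22 ± 0.16 (4.67-fold lower, limma adjusted p = 1.18e-09), and the second Steap4 probe set fell by 1.64.

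Cybrd1, a plasma membrane ferrireductase known from the duodenum, lies on chromosome 2 (71118054 to 71142926). It measured 4.79, 4.68, 4.73 and 4.98 on the old cultured arrays and 4.72, 4.66, 4.90 and 5.07 on the young cultured arrays, all close to the control level. On in vivo arrays it measured 5.18, 5.73, 6.01 and 5.74 on the old arrays and 7.83, 6.91, 6.84 and 7.50 on the young arrays. The young in vivo arrays were highest, the old in vivo arrays were intermediate and the cultured arrays of both ages were lowest, with no overlap between these 3 levels. Averaged over both ages the culture change was -1.65 ± 0.14 (3.14-fold lower, limma adjusted p = 1.34e-08), made up of -0.87 ± 0.20 in old and -2.43 ± 0.20 in young cells.

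The ferritin heavy chain Fth1 (chromosome 19, 9980600 to 9985111), which oxidises iron as it enters the shell, measured 11.27, 11.18, 11.30 and 11.40 on the old cultured arrays and 11.33, 11.23, 11.32 and 11.30 on the young cultured arrays. In vivo it measured 12.01, 11.98, 11.87 and 11.82 on the old arrays and 11.86, 11.99, 11.93 and 11.87 on the young arrays. The gap between the conditions was small but wider than the scatter within them. Fth1 was lower in culture by 1.54-fold, a log2 change of -0.62 ± 0.05 (limma adjusted p = 9.29e-09).

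The light chain Ftl1 (chromosome 7, 45457944 to 45459886) measured 11.58, 11.65, 11.68 and 11.69 on the old cultured arrays and 11.66, 11.60, 11.68 and 11.71 on the young cultured arrays. In vivo, values were 11.90, 11.87, 11.88 and 11.94 on the old arrays and 11.77, 11.77, 11.63 and 11.69 on the young arrays. Cultured arrays overlapped young in vivo arrays and lay below all old in vivo arrays. The change over both ages was -0.15 ± 0.05 (limma adjusted p = 0.00771). It was made up of -0.25 ± 0.07 in old and -0.05 ± 0.07 in young cells. The young difference alone did not pass the threshold (limma adjusted p = 0.48). Over both ages the change was -0.35 with arrays scaled to their 75th percentile and -0.43 with cyclic loess. Both ferritin values are high in the array's range, whose highest value was 13.08, and both chains belong to families with many near-identical pseudogenes, so their values are uncertain.

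Ferroportin, Slc40a1 (chromosome 1, 45908070 to 45926532), was near the control level everywhere. It measured 4.33, 4.14, 4.22 and 4.42 on the old cultured arrays and 4.23, 4.44, 4.31 and 4.31 on the young cultured arrays. On in vivo arrays it measured 4.65, 4.53, 4.79 and 4.75 on the old arrays and 4.43, 4.53, 4.89 and 4.77 on the young arrays. The cultured and in vivo arrays overlapped slightly. The change was -0.37 ± 0.07 (limma adjusted p = 2.53e-04), with -0.57 when arrays were scaled to their 75th percentile and -0.19 with cyclic loess.

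In old against young in vivo cells, none of the 8 genes other than Cybrd1 passed the threshold, where 1.35% of all tested genes did, 0.911% higher and 0.439% lower. The difference of Cybrd1 was -1.60 ± 0.24, or 3.04-fold lower in old cells, the 14th largest decrease among all tested genes. It was -1.44 without old in vivo replicate 1, and lay between -1.75 and -1.42 when each in vivo array was left out in turn. The second Cybrd1 probe set had 3.39, 3.71, 3.86 and 3.37 on the old in vivo arrays, against 5.44, 4.87, 3.97 and 4.29 on the young in vivo arrays. Those groups did not overlap either, although all the old and 2 of the young values were below 4.34. Beside it, 1 of the 9 tested macrophage markers passed the threshold between old and young in vivo cells, Csf1r with a log2 change of -1.07 ± 0.15 (limma adjusted p = 0.00995). Fcgr3, of the same list, had -0.54 ± 0.12 with no overlap and missed the threshold (limma adjusted p = 0.0576). The highest value of the list was that of Cd14, 0.28 ± 0.16 (limma adjusted p = 0.465). The macrophage list as a whole had a median change of 0.01. Of the other cell type lists, 1 pericyte marker passed, Kcnj8 with 1.06 ± 0.22 (limma adjusted p = 0.0494), and so did 1 of the 9 fibroblast markers, Col1a2 with -0.64 ± 0.13 (limma adjusted p = 0.0493). The part of these markers in the age differences was not tested.

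The other 8 genes differed by -0.22 to 0.18 between old and young in vivo cells. Ftl1 was 11.87 to 11.94 on the old and 11.63 to 11.77 on the young in vivo arrays, so its groups did not overlap, as in 8.53% of all tested genes. Its difference of 0.18 ± 0.09 missed the threshold (limma adjusted p = 0.367). Steap4 had the most negative value of the 8, -0.22 ± 0.26 (limma adjusted p = 0.744), and Tfrc had -0.17 ± 0.30 (limma adjusted p = 0.833). Without old in vivo replicate 1, Tfrc had -0.43 (limma adjusted p = 0.425), then the most negative of the 8, and Steap4 had -0.41 (limma adjusted p = 0.438). With these errors, a difference in Tfrc or Steap4 of the size of those SEs was not detectable.

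In old against young cultured cells, 0 of the 9 genes and 0 of all 14819 tested genes passed limma's threshold (0% of genes), while 533 of all genes and 0 of the 9 had an unadjusted p below 0.05. The widest difference of the 9 was that of Tfrc, -0.30 ± 0.16 (limma adjusted p = 0.997), beside the low values of old cultured replicates 1 and 2, and it was -0.15 without old cultured replicate 1. Steap4 had -0.22 ± 0.11, Steap3 had -0.19 ± 0.12 and Steap1 had 0.14 ± 0.10, each with an adjusted p of 0.997 in limma. Cybrd1 had -0.04 ± 0.10, with old and young cultured arrays intermixed. Old and young cultured arrays overlapped in all 9 genes, where 2.06% of all tested genes had no overlap.

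The age difference in culture minus that in vivo tests whether age differences depend on the condition. For Cybrd1 it was 1.56 ± 0.28, given with no p because it holds the in vivo difference that had been singled out. For the other 8 genes it lay between -0.22 and 0.11, and none passed the threshold, which 0.587% of all tested genes did, 0.196% higher and 0.391% lower. The lowest limma adjusted p among them was that of Ftl1, 0.413, with a difference of -0.20 ± 0.09.

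**Figure D3:**
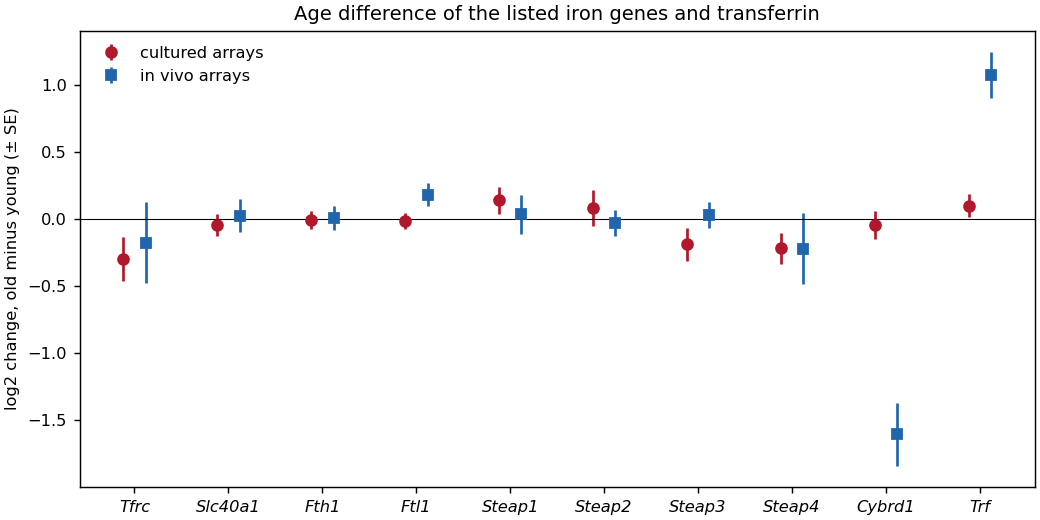
Log2 difference between old and young cells (± SE) for the 9 measured iron genes and transferrin (Trf), in cultured arrays (circles) and in in vivo arrays (squares), with 4 old and 4 young arrays each. Cybrd1 at -1.60 and Trf at 1.07 stand off zero in vivo and not in culture, and the other genes lie within 0.30 of zero in both.

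Beyond the 10 genes, 61 further genes of iron handling were listed by role, 55 of them had a probe set of their own and 50 were tested. In culture 16 were higher, 21 were lower and 13 did not pass the threshold, with a median change of -0.14, close to the -0.11 of all tested genes. The shares of all tested genes were 34.8% higher and 44.7% lower, so the other iron genes as a set lay near them. The split moved with the scaling between arrays, to 11 higher and 29 lower after scaling to the 75th percentile, which set the median of all genes at -0.31.

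A list of carriers, oxidases and surface receptors of extracellular iron and haem was lower in culture in 8 of 8 tested genes, with a median of -1.28, where 44.7% of all tested genes were lower. The list was chosen with earlier results of these arrays known, so the count is a description. Of the 8 tested genes, Hpx (-0.18) was below 4.34 on every array, and Hephl1 (-0.27) and Lcn2 (-0.23) lay close to that level. Scara5, a receptor that takes up ferritin, measured 6.36, 6.40, 6.13 and 6.46 on old cultured and 7.22, 6.95, 6.50 and 7.15 on young cultured arrays. In vivo it measured 11.06, 11.28, 11.32 and 11.45 on the old and 11.33, 11.38, 11.34 and 11.42 on the young arrays. Its change was -4.68 ± 0.09 (limma adjusted p = 1.7e-16), the steepest fall of the 50 genes. The old cultured arrays also lay below all young cultured arrays, a difference of -0.62 ± 0.15 that missed the threshold over all genes (limma adjusted p = 0.997). Trf, transferrin itself, fell by 2.68 ± 0.10 and Cp, the plasma ferroxidase ceruloplasmin, fell by 2.51 ± 0.15 on the log2 scale. Cp's mean over all its probe sets fell by 1.35.

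Among genes that sense iron, Hfe, a partner of the transferrin receptor, was lower in culture by a log2 change of -2.94 ± 0.09 (limma adjusted p = 2.98e-14). Aco1 was higher, by 0.98 ± 0.09 (limma adjusted p = 6.8e-08), and by 0.58 as the mean over its probe sets. In all, 2 of the 8 tested genes of this list were higher and 5 lower, where 34.8% of all tested genes were higher and 44.7% lower. Of the 5 lower, Hjv (-0.19) was below 4.34 on every array. Ireb2, the other iron regulatory protein, is not analysed here.

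Frrs1, a ferric reductase of the cytochrome b561 family to which Cybrd1 also belongs, rose by 1.91 ± 0.12 in culture (limma adjusted p = 2.81e-10). Of the 3 other tested members of that family, Cyb561a3 was higher, Cyb561 was lower and Cyb561d2 did not pass the threshold. Glrx5, a mitochondrial glutaredoxin for iron-sulphur clusters, rose by 1.67 ± 0.09, and 4 of the 9 tested mitochondrial iron and iron-sulphur genes were higher and 3 lower. Of 7 haem synthesis genes 3 were higher and 2 lower, with Alad higher by 1.21 ± 0.07 and by 0.64 as the mean over its probe sets. In these short lists no share stood far from the 34.8% higher and 44.7% lower of all tested genes. Both changed haem breakdown genes of 4 were higher: Blvra, a biliverdin reductase, by 1.02 ± 0.10 and Hmox1, the inducible haem oxygenase, by 0.80 ± 0.10 (0.49 after cyclic loess). Ncoa4, which delivers ferritin to lysosomes, had 0.19 ± 0.10 and missed the threshold (limma adjusted p = 0.0821), though its mean over probe sets rose by 0.42 and passed it. Its direction turned to -0.04 after cyclic loess (limma adjusted p = 0.704) and to -0.01 after scaling to the 75th percentile (limma adjusted p = 0.932).

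**Figure D4:**
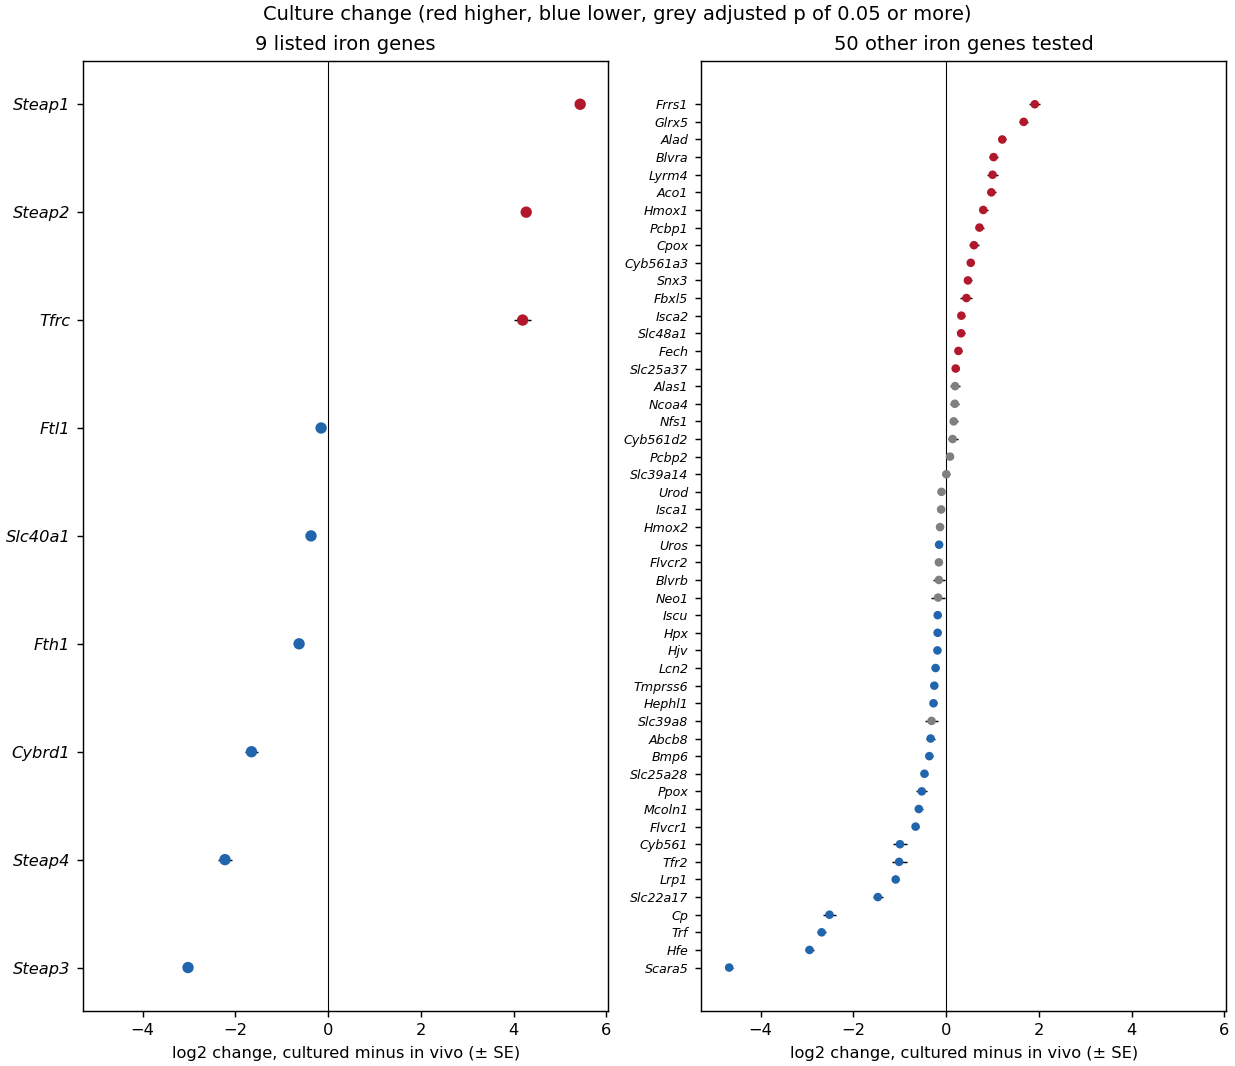
Log2 change in culture against in vivo (± SE, 8 cultured and 8 in vivo arrays) for the 9 measured iron genes on the left and the 50 other tested iron genes on the right. Steap1, Steap2 and Tfrc lie between 4.20 and 5.43, beyond all 16 other iron genes that rose, of which Frrs1 reached 1.91, while Scara5 at -4.68 lies beyond Steap3 at -3.02.

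With age, 1 of the 50 other iron genes passed the threshold in vivo, Trf, where 1.35% of all tested genes did. With all 16 arrays in 1 fit, which shares the spread of the cultured arrays, 7 were higher and 2 lower. In that fit 900 of the 14819 tested genes passed, 665 higher and 235 lower. Cyb561, of the family of Cybrd1, was 1 of the 2 lower, with -1.005 (limma adjusted p = 0.0117). With the 8 in vivo arrays its old and young arrays did not overlap, but it missed the threshold (SE 0.26, limma adjusted p = 0.0962). Frrs1, of the same family, went the other way there, with 0.46 ± 0.18 (limma adjusted p = 0.239). Without old in vivo replicate 1 Cp also passed, with -0.59 (limma adjusted p = 0.049), where 306 of all tested genes did. Trf measured 7.98, 7.49, 7.75 and 7.80 on the old in vivo arrays, against 6.33, 6.93, 6.45 and 7.01 on the young in vivo arrays. Old and young arrays did not overlap, and the difference was 1.07 ± 0.17, or 2.11-fold higher in old cells (limma adjusted p = 0.0173). It was 1.0 without old in vivo replicate 1, and it missed the threshold without young in vivo replicate 3 (limma adjusted p = 0.0624). In culture Trf was 4.39 to 4.75 on old and 4.41 to 4.56 on young arrays, near the control level, and the age difference was 0.10 ± 0.09.

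The profiles most like the 4 genes with the widest range were found by Pearson correlation over the 16 arrays, which fall into a cultured and an in vivo cluster. All these genes share the step between those clusters, and the correlations are given as a description. Steap1 was closest to Kansl2 (r = 0.998), Rrm2 (0.998) and Tmeff1 (0.997), and Steap2 to Smc4 (0.999), Spc25 (0.997) and Steap1 (0.997). Tfrc was closest to Pkm (0.992), Akap2 (0.991) and Cd44 (0.990). Steap3, which ran the other way, was closest to Fndc1 (0.999), Lum (0.999) and Cd34 (0.999).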

How the data were processed

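The deposited table held 45141 probe sets for 16 Affymetrix mouse arrays. The submitters' processing notes list RMA and affy, without versions. The deposited values were taken as log2 intensities from their range, 2.70 to 13.08, since the base is not stated, nor whether all arrays were normalised together. RMA sets each array to a common distribution, so changes are relative to other genes, and it compresses differences near background. Symbols came from the platform annotation (28898 probe sets with 1 symbol, 551 with several, 15692 with none), and 28689 were matched by gene ID to RefSeq GRCm38.p6. No pair of arrays was identical. Array correlations over all probe sets were 0.987 to 0.996 among cultured, 0.977 to 0.992 among in vivo arrays and 0.879 to 0.913 between them.

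Each gene was read from its probe set with the highest mean and tested if at least 4 of 16 arrays exceeded 3.87, the 25th percentile. Group means were fitted with limma 3.58.1 in R 4.3.3 (lmFit, eBayes, two-sided). Culture and the interaction used all 16 arrays, while the age differences used the 8 arrays of the condition, because the median residual SD was 0.129 among cultured and 0.185 among in vivo arrays. In tests on simulated data with 14819 genes, 200 of them changed, log2 changes of 1 were recovered in 99.0% (culture), 84.7% (age in vivo), 92.7% (age in culture) and 75.0% (interaction), and of 0.5 in 76.3%, 27.3%, 59.3% and 22.0%. False calls were 12.2%, 6.15%, 5.59% and 12.1% of calls in the same order. In the data 11787 genes passed the threshold for culture, 200 for age in vivo, 0 for age in culture and 87 for the interaction. Recovery and false calls depend on how many genes change, so the simulated shares for culture do not carry over to these data. With 4 against 4 arrays, the number of arrays limits the precision, and an exact permutation test cannot go below 0.0286. Alternatives were 2 other scalings, the mean over probe sets, other filters, other variance settings, all arrays in 1 fit, and leaving out each array.

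The members and gene lists were chosen with earlier results of these data known. Other iron genes are named if they were among up to 4 with the largest change past the threshold in each direction of a contrast. Aco1, Ireb2, Trf, Hmox1, Ncoa4 and Scara5 are named in the culture contrast whatever their result. Krt5, Csf1r, Fcgr3, Cd14, Kcnj8, Col1a2, Mitf, Tek, Cd68, Kdr, Myh11, Mcam, Des, Rgs5, Alas2, Hjv, Hpx, Hephl1, Lcn2 and the Cyb561 genes were named after their values were seen. So were the age differences of Scara5 in culture and of Cp, Cyb561 and Frrs1 in vivo.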

Additional observations from a re-analysis of the deposited data

Results flagged for a closer look

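The age difference of Cybrd1 was -0.04 in culture and -1.60 in vivo, a difference of 1.56 on the log2 scale, given as a description because the in vivo value had been singled out. Cybrd1 in culture was 4.68 to 4.98 on old and 4.66 to 5.07 on young arrays, close to the control level of 4.34, and the part of that level in the difference was not tested.

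Trf showed the reverse pattern, with an age difference of 0.10 in culture and 1.07 in vivo, a difference of -0.97 ± 0.20 (limma adjusted p = 0.0379). Cultured Trf was also near the control level, and the call was lost in 11 of 16 refits that left out 1 array.

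In a search of 132 groups of 4 arrays for a sample far from the rest, 6 were found, where chance gives about 1 in 20. Tek was 4.91 on 1 old cultured array and 3.56 to 3.74 on the others, and Kcnj8 was 3.79 on 1 old cultured array and 4.28 to 4.31 on the others. Steap2 was 4.37 on 1 old in vivo array and 4.11 to 4.15 on the others, all close to the control level. The other 3 concern old in vivo replicate 1: Krt5 was 9.68 there against 5.74 to 6.14 on the others, Krt14 was 7.11 against 4.78 to 4.92, and the keratinocyte markers averaged 5.99 against 4.78 to 4.89. The age and culture differences of Cybrd1 without that array, -1.44 and -1.73, kept their direction, and its part in other results was not tested beyond the values given without it.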

How the results depend on the processing

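For the 9 measured iron genes, without the values given as a description, 619 of 619 recomputed values kept their side of the threshold, and none that was past it changed direction. The number of genes past the threshold moved more than the genes described. For old against young in vivo it was 900 with all 16 arrays in 1 fit, against 200 with the 8 in vivo arrays, and it ranged from 60 to 306 when each array was left out, with 60 without young replicate 2, 66 without old replicate 2, 67 without young replicate 3, 96 without young replicate 4, 100 without old replicate 3, 118 without old replicate 4, 132 without young replicate 1 and 306 without old replicate 1. For the interaction it ranged from 44 to 200, against 87, with 200 without old in vivo replicate 1, 161 without young in vivo replicate 1, and 44 to 55 without old cultured replicates 2 and 4 and young cultured replicates 1, 2 and 4. The share of calls that were higher in culture was 43.7%, and 32.5% after scaling to the 75th percentile. In old in vivo cells it was 67.5%, against 43.9% after that scaling and 51.1% after cyclic loess, and for the interaction it was 33.3%, against 55.9% and 45.2%. The cause was not tested. Of 291 recomputed values of the other iron genes named by rule, 276 kept their side, 13 of Trf lost it and 2 of Ncoa4 gained it. Among all 50 other iron genes, the in vivo age count was 7 higher and 2 lower with all 16 arrays in 1 fit, against 1 higher and 0 lower with the 8 in vivo arrays. Over all 14819 tested genes the counts in these fits were 900 and 200. The interaction of Trf had an adjusted p of 0.0644 after scaling to the 75th percentile and 0.0509 to 0.0926 in the 11 refits that lost it. Slc40a1 was not tested under the filter at the 50th percentile, and the other genes counted for culture all stayed past the threshold there. No paired analysis was possible because the labels do not say which arrays share a mouse or a collection day, and replicate numbers were given in accession order. Values near 4.34 and families with pseudogenes limit what Slc40a1, Cybrd1 in culture, Fth1 and Ftl1 can show.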
